A study of Mus musculus with 12 samples.

Results

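The Nr4a orphan nuclear receptors, Nr4a1, Nr4a2 and Nr4a3, were followed in macrophages sorted from mouse hearts before and after a freezing injury. They were taken by symbol from the deposited expression table and make up 3 of its 14460 genes. They had been picked for how their RNA moved over the days, so their levels and differences are given as a description and no test is applied to them. RNA was sequenced in 12 libraries, 3 per group, which the labels call independent biological replicates. All cells were GFP-positive and came from Cx3cr1GFP/+ mice aged 2 to 3 months, a knock-in in which GFP replaces 1 copy of the fractalkine receptor gene Cx3cr1, so every group, the uninjured one included, carries a single working copy. The day 0 group (uninfarcted hearts, no surgery) was sorted as Ly6clow/CX3CR1high. The day 3 group (3 days after cryoinjury, used as a model of myocardial infarction) was sorted as Ly6chigh/CX3CR1low. The day 7 and day 30 groups (7 and 30 days after cryoinjury) were sorted as Ly6clow/CX3CR1high. Every comparison with day 3 therefore joins time after injury with the sorting gate, and the effects of time and gate cannot be told apart. GFP under Cx3cr1 marks monocytes and macrophages and also subsets of dendritic, natural killer and T cells.

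NR4A proteins are nuclear receptors whose ligand pocket is closed by bulky side chains, so their activity follows how much protein a cell makes. Their genes are immediate early genes, switched on within minutes by signals such as growth factors, cyclic AMP, calcium, lipopolysaccharide and cell stress, and the transcripts are short-lived. NR4A proteins bind the NBRE element as monomers, a palindromic element as dimers, and, for NR4A1 and NR4A2, other elements together with the retinoid X receptor. In mice, Nr4a1 (Nur77) is needed for Ly6C-low patrolling monocytes, and in macrophages NR4A1 and NR4A2 (Nurr1) have been described mainly as restraining inflammatory genes. Nr4a3 (Nor-1) is the third member. An RNA level of these genes says how much transcript was in the sorted cells when they were lysed, and handling of cells during isolation can itself induce immediate early genes.

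The stretches just upstream of a transcription start that RefSeq gives for each member are shown (RefSeq, build GRCm38.p6, 5′ to 3′ along each gene's own strand). The capitals mark CRE half-sites, the short element TGACG, or CGTCA when read on the other strand, which the cyclic-AMP response factors CREB, CREM and ATF can bind. The Nr4a1 stretch is chr15:101266596-101266845 on the plus strand, before the start at 101266846, and it lies inside the gene, since GENCODE also has a transcript that starts at 101254269. The Nr4a2 stretch is chr2:57124004-57124253 on the minus strand. The Nr4a3 stretch is chr4:48045055-48045152 on the plus strand, cut at the first annotated exon so that 98 bases are printed.
Nr4a1: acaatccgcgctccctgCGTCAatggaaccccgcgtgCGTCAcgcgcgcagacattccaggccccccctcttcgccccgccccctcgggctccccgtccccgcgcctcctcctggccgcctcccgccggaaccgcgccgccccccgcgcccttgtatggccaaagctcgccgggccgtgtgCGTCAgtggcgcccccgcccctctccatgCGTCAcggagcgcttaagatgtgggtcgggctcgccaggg
Nr4a2: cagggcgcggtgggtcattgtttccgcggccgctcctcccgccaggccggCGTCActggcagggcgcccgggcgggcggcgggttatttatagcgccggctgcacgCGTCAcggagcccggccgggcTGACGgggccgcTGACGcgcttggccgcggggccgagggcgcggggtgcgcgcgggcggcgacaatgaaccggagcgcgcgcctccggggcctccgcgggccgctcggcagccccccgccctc
Nr4a3: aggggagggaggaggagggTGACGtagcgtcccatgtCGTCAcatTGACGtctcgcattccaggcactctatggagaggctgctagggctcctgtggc
Each of the 3 genes had 4 half-sites in the 250 bases before its RefSeq start, of which the printed Nr4a3 stretch holds 3. At least 1 half-site was present in 17.8% of 32851 promoter windows of the same length, and at least 4 in 45 of them (0.137%). None of the 3 windows held the full palindrome TGACGTCA (both strands; 1.55% of windows) or the NBRE letters AAAGGTCA (either strand; 1.34% of windows). Among the immediate early genes listed further on, 11 of the 21 with a window had at least 1 half-site in any of their windows. This is a share of genes, a gene can have several windows, and so it is not directly comparable with the 17.8% of windows. These are matches of letters, not measured binding sites, and their part in the Nr4a levels was not tested.

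The libraries held 5828904 to 13199576 reads. A gene at 0 could hide up to 3 reads, which corresponds to a signal between 0.190 and 0.543 depending on the library, and no Nr4a gene was at 0 in any library. Levels are given as signal, the deposited normalised read count. Macrophage markers were abundant in every group: the summed signal of 8 of 8 listed markers ran from 14778 to 16289 at day 0, 7529 to 10785 at day 3, 13997 to 19327 at day 7 and 12123 to 12597 at day 30. Lyz2 made up most of each sum, with means of 11922, 5678, 13236 and 9373 in that order of days. At day 3 against day 0 the list was split, with 3 of 8 called higher and 4 lower by limma (22.1% of all genes in each direction). Mean Cd68 was 982 at day 3, against 392 at day 0, while mean Csf1r was 560, against 1599. The library day 0 replicate 1 stood apart from its group, with 196120 of mitochondrially encoded signal beside 425210 and 470740 in the other 2. That signal was 181840 to 256240 at day 3, 222610 to 313500 at day 7 and 192390 to 200780 at day 30. The 3 day 30 libraries were closely alike: their recovered reads gave a chi-square divided by the number of genes of 2.20 to 2.99 for each pair, against 6.25 to 90.9 for pairs of libraries of any other day, so their spread may be smaller than that between separate animals. With bulk RNA of sorted cells, fewer cells that express a gene and less RNA per cell cannot be told apart.

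Nr4a1 lies on chromosome 15 from 101254269 to 101274795 on the plus strand (GRCm38, GENCODE M21), and no annotated gene overlaps it. Its signal was 105, 25.1 and 19.6 in the 3 day 0 libraries, 191, 337 and 264 at day 3, 39.5, 39.0 and 23.96 at day 7, and 206, 199.6 and 196 at day 30. The day 3 and day 30 libraries were all above the day 0 and day 7 libraries, and the day 0 library at 105 stood far above its 2 neighbours. Means were 49.8 ± 47.6, 264 ± 73.0, 34.1 ± 8.83 and 200.4 ± 5.06 at days 0, 3, 7 and 30 (SD, n = 3 each). Ordered by mean, Nr4a1 was highest at day 3, then day 30, day 0 and day 7, but the ranges of days 3 and 30 overlapped, as did those of days 0 and 7. It was the most deeply counted member, with 108 to 3089 reads per library.

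Nr4a2, on chromosome 2 from 57106830 to 57124003 on the minus strand, had the lowest signal of the 3 at days 0 and 7 by mean, before any correction for length. Its signal was 7.00, 1.78 and 3.62 at day 0, 42.4, 68.4 and 41.3 at day 3, 2.42, 1.85 and 3.80 at day 7, and 25.8, 32.1 and 26.9 at day 30. All day 3 libraries were above all day 30 libraries, and both groups were above days 0 and 7, whose ranges overlapped. The low values rest on few reads: 17 to 53 per library at day 0 and 16 to 26 at day 7. Means were 4.13 ± 2.64, 50.7 ± 15.3, 2.69 ± 1.001 and 28.3 ± 3.34 at days 0, 3, 7 and 30 (SD, n = 3 each).

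Nr4a3, on chromosome 4 from 48045153 to 48086447 on the plus strand, peaked on a different day. Its signal was 10.2, 3.56 and 3.98 at day 0, 17.7, 29.4 and 15.1 at day 3, 8.33, 4.16 and 5.84 at day 7, and 57.8, 55.5 and 59.0 at day 30. All day 30 libraries were above all day 3 libraries, the reverse of Nr4a2, and all day 3 libraries were above days 0 and 7, whose ranges overlapped. Means were 5.90 ± 3.69, 20.7 ± 7.61, 6.11 ± 2.10 and 57.4 ± 1.76 at days 0, 3, 7 and 30 (SD, n = 3 each). Reads per library ran from 22 to 77 at day 0 and from 36 to 55 at day 7.

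**Figure D1:**
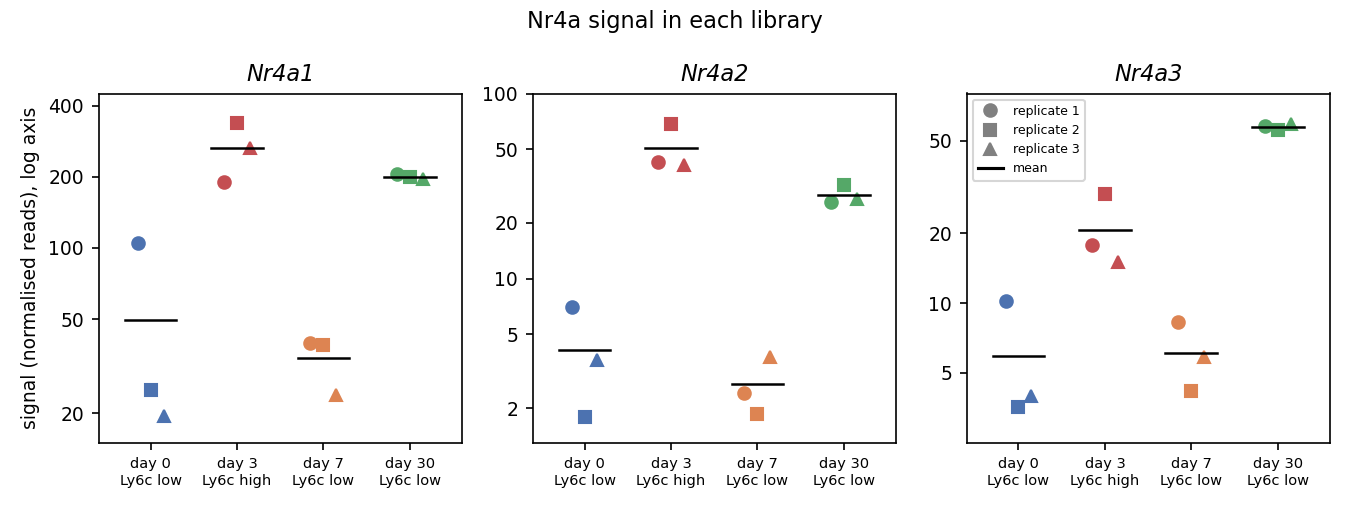
Signal (normalised reads, log axis) of Nr4a1, Nr4a2 and Nr4a3 in each of the 12 libraries; symbols mark the replicate number and bars the mean of each day. Days 3 and 30 stand above days 0 and 7 in all 3 panels, with Nr4a2 highest at day 3 and Nr4a3 highest at day 30.

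At day 3, against day 0, all 3 receptors were higher, Nr4a2 most. The ratio of mean signals was 12.3 for Nr4a2, 5.30 for Nr4a1 and 3.51 for Nr4a3. On the log2(signal + 1) scale, which understates the change of low genes, the differences were 3.43 ± 0.32 for Nr4a2, 2.75 ± 0.43 for Nr4a1 and 1.72 ± 0.32 for Nr4a3 (SE pooled over all 12 libraries, n = 3 against 3). The 3 day 3 libraries were above the 3 day 0 libraries for 3 of 3 members. In the same comparison 27.9% of the 12879 genes tested were higher at day 3 without overlap, and limma called 22.1% higher and 44.2% in either direction (Benjamini-Hochberg adjusted p up to 0.05). Since the members were chosen from these values, nothing is read from that count. Markers of Ly6C-high monocytes moved with the gate: the summed signal of 10 of 10 markers was 4666 to 7301 at day 3, against 1712 to 1909 at day 0. Of the 10, 9 were called higher by limma and 1 lower, F13a1, which was at a mean signal of 230 at day 3, against 1377 at day 0, and made up most of the day 0 sum. The part of Ly6C-high monocytes in the Nr4a levels was not tested.

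At day 7, against day 0, no member stood apart. Log2 differences were -0.16 ± 0.43 for Nr4a1, -0.38 ± 0.32 for Nr4a2 and 0.13 ± 0.32 for Nr4a3, of the size of their standard errors, and the ranges overlapped for all 3. In this comparison 32.2% of genes tested had groups that did not overlap and 21.6% were called by limma. The sign depended on single libraries. Without day 0 replicate 1, the log2 difference was 0.57 for Nr4a1 and 0.0070 for Nr4a2. Without day 7 replicate 3 it was 0.067 for Nr4a1. For Nr4a3 it was -0.11 without day 0 replicate 2, -0.048 without day 0 replicate 3 and -0.092 without day 7 replicate 1. Mean Nr4a2 at day 7 was 0.995 times the mean of the other 2 day 0 libraries, and for Nr4a1 and Nr4a3 these ratios were 1.53 and 1.62.

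At day 30, against day 0, all 3 receptors were higher under the same sorting gate, Nr4a3 most. The ratio of mean signals was 9.73 for Nr4a3, 6.84 for Nr4a2 and 4.03 for Nr4a1. Log2 differences were 3.21 ± 0.32 for Nr4a3, 2.64 ± 0.32 for Nr4a2 and 2.39 ± 0.43 for Nr4a1. Day 30 was above day 0 without overlap for 3 of 3 members, where 20.5% of genes tested did the same and 3.45% were called higher by limma. Again this is the contrast the members were chosen from. Mitochondrially encoded signal was 192390 to 200780 at day 30, against 196120 to 470740 at day 0, low in the day 0 library with the most Nr4a RNA, and its part in the difference was not tested. The ratios rested partly on day 0 replicate 1: without it they were 15.2 for Nr4a3, 10.5 for Nr4a2 and 8.98 for Nr4a1, and at day 3 they became 5.49 for Nr4a3, 18.8 for Nr4a2 and 11.8 for Nr4a1.

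Between these peaks all 3 receptors were low. At day 7, against day 3, log2 differences were -3.80 ± 0.32 for Nr4a2, -2.91 ± 0.43 for Nr4a1 and -1.60 ± 0.32 for Nr4a3, and day 7 was below day 3 without overlap for 3 of 3 members (25.3% of genes tested; limma called 23.5% lower and 46.8% in either direction). At day 30, against day 7, the only comparison of 2 injured stages under 1 gate, they were 3.08 ± 0.32 for Nr4a3, 3.02 ± 0.32 for Nr4a2 and 2.55 ± 0.43 for Nr4a1. Ratios of means were 10.5 for Nr4a2, 9.40 for Nr4a3 and 5.87 for Nr4a1, with day 30 above day 7 without overlap for 3 of 3 members (27.7% of genes tested; limma called 19.7% higher and 39.6% in either direction). Fibroblast markers moved the other way between these days: the summed signal of 8 of 8 markers was 168 to 174 at day 30, against 557 to 2190 at day 7, whereas at day 0 it was 40.0 to 118 and at day 3 285 to 383. Against day 0 their sum was thus higher without overlap at days 3 and 30, but not every marker moved with it. At day 3 limma called 4 of 8 higher and 1 lower (22.1% of all genes in each direction). At day 30 it called 2 higher and 0 lower (3.45% of all genes higher and 2.73% lower). The part of fibroblast RNA in the Nr4a differences was not tested.

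The family sum and the sum of the wider set of immediate early genes are set side by side by library. The summed Nr4a signal was 122, 30.4 and 27.2 at day 0, 251, 435 and 321 at day 3, 50.3, 45.0 and 33.6 at day 7, and 289, 287 and 282 at day 30. The sum of 26 immediate early genes (Fos, Jun, Egr, Ier, Klf, Dusp and related genes, without the Nr4a genes) was 9214, 3184 and 3688 at day 0, 6767, 9166 and 8690 at day 3, 3188, 2511 and 3216 at day 7, and 10803, 10734 and 10687 at day 30. In both sums day 0 replicate 1 lay well above the other 2 day 0 libraries. The Nr4a sum had its highest mean at day 3, though its day 3 and day 30 ranges overlapped, and its day 0 replicate 1 was below every day 3 library. The immediate early sum was highest at day 30 without overlap, and its day 0 replicate 1 was above every day 3 library. Its single genes differed: mean Ier5 was 501 at day 3, against 393 at day 30, while mean Egr1 was 65.5, against 696. Day 0 replicate 1 was the highest day 0 library for 3 of 3 Nr4a genes and for 24 of 25 immediate early genes tested (96.0%), where it was highest for 40.6% of all genes. At day 3, replicate 2 was highest for 3 of 3 Nr4a genes, for 12 of 25 immediate early genes and for 30.8% of all genes. What raised these genes in 1 uninjured library was not tested.

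**Figure D2:**
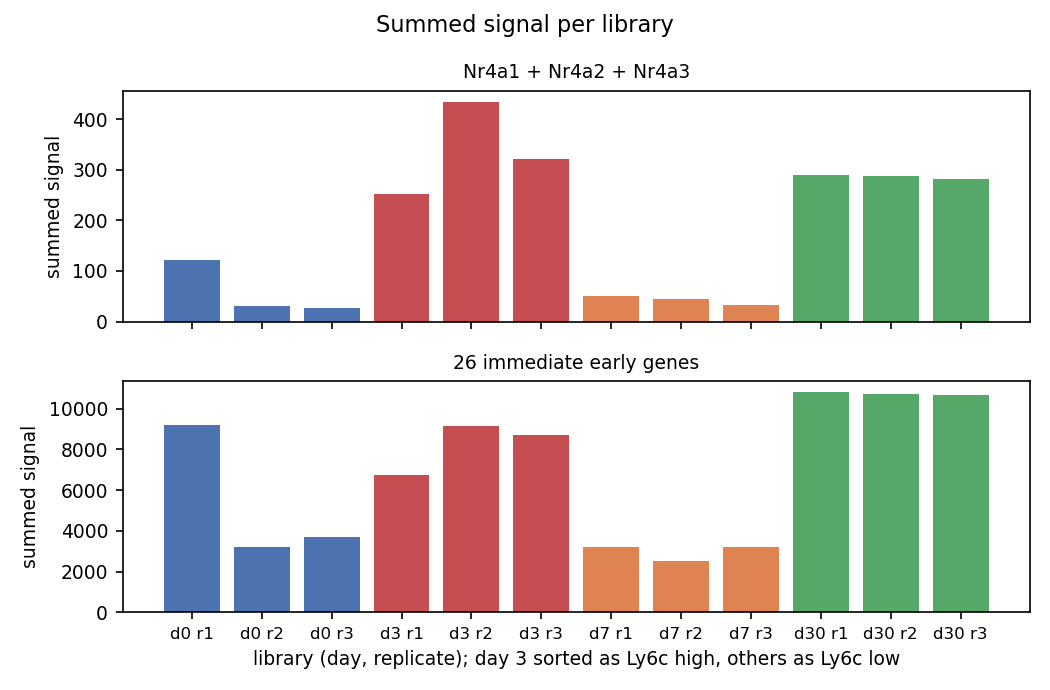
Summed signal of the 3 Nr4a genes (top) and of 26 immediate early genes (bottom) in each of the 12 libraries, coloured by day. Day 0 replicate 1 reaches 122 and 9214, well above the other 2 day 0 libraries, and day 30 is even across its 3 libraries.

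Other cells in the sorted samples also differed between days. Patrolling monocyte markers, 12 of 12 in the table, summed to 273 to 409 at day 0, 373 to 535 at day 3, 287 to 373 at day 7 and 310 to 324 at day 30, with the day 30 range inside the day 0 range. The list was split at day 3 against day 0, where limma called 3 higher and 4 lower (22.1% of all genes in each direction). Mean Fcgr4 was 148 at day 3, against 51.0 at day 0, while mean Adgre4 was 30.6, against 92.2. Cardiomyocyte markers, 10 of 10, summed to 82.9 to 399 at day 0, 11.3 to 17.6 at day 3, 83.9 to 213 at day 7 and 25.7 to 26.1 at day 30, low where the Nr4a genes were high, with the lowest day 0 value in replicate 1, the day 0 library with the most Nr4a RNA. That library also had the lowest day 0 fibroblast and T and NK cell sums, and the highest mast cell sum. Endothelial markers, 7 of 8, were lowest there too (23.1, against 137 and 122). They summed to 115 to 151 at day 3, 63.4 to 145 at day 7 and 37.0 to 41.6 at day 30. Kdr made up most of the day 3 sum, at a mean of 73.3, against 20.9 at day 0. Of the 7, limma called 1 higher and 1 lower at day 3 against day 0 (22.1% of all genes in each direction). Mural cell markers, 6 of 6, were also lowest in day 0 replicate 1 (42.4, against 140 and 115), with 22.6 to 34.0 at day 3, 53.8 to 153 at day 7 and 30.2 to 35.6 at day 30. Mast cell markers, 6 of 6, summed to 22.6 to 40.9 at day 0, 0.575 to 0.794 at day 3, 10.5 to 19.5 at day 7 and 2.54 to 3.61 at day 30. At day 3 Cma1, Cpa3, Mcpt4, Tpsb2 and Fcer1a were at 0 in all 3 libraries. The cardiomyocyte gene Myl7 was also at 0 at day 3. T and NK cell markers, 9 of 10, summed to 40.7 to 194 at day 0, 4.72 to 11.5 at day 3, 36.9 to 72.5 at day 7 and 28.1 to 29.0 at day 30. Neutrophil markers, 5 of 8, summed to 5.41 to 47.3 at day 0, 81.6 to 159 at day 3, 9.84 to 22.8 at day 7 and 8.34 to 10.4 at day 30, highest at day 3 without overlap. Of the 4 tested, limma called 2 higher and 0 lower at day 3 against day 0 (22.1% of all genes in each direction). Mmp8 alone was at 60.6 to 66.7 at day 3, while the ranges of S100a8 and S100a9 at days 0 and 3 overlapped. Dendritic cell markers, 7 of 7, summed to 30.5 to 53.1 at day 0, 13.7 to 36.7 at day 3, 44.9 to 82.5 at day 7 and 78.9 to 86.3 at day 30, so that day 30 was above day 0 without overlap. Cd209a made up most of the day 30 sum, at a mean of 50.5, against 19.6 at day 0, while Zbtb46 was at 11.9, against 12.8. In that comparison limma called 1 of the 7 higher, Ccr7, and 0 lower (3.45% of all genes higher and 2.73% lower). The Ccr7 call was lost without day 0 replicate 2 or day 30 replicate 3. B cell markers, 5 of 6, summed to 277 to 304 at day 0, 69.7 to 113 at day 3, 210 to 330 at day 7 and 235 to 252 at day 30. Ighm made up most of each sum, with means of 279, 87.9, 258 and 232 in that order of days. What RNA of patrolling monocytes, cardiomyocytes, endothelial cells, mural cells, mast cells, T or NK cells, neutrophils, dendritic cells or B cells contributed to the Nr4a levels was not tested.

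Corrected for length, Nr4a1 made up most of the family's RNA on every day, and the balance of the other two shifted. Signal per kilobase of annotated exon put the mean share of Nr4a1 at 85.1% at day 0, 82.4% at day 3, 84.6% at day 7 and 77.5% at day 30. The ranges of days 0, 3 and 7 overlapped (78.2% to 89.7%, 80.2% to 85.6% and 78.1% to 90.6%), and that of day 30 was 76.8% to 78.6%. Nr4a2 averaged 7.69%, 13.8%, 6.31% and 9.46% of the family at days 0, 3, 7 and 30, and Nr4a3 7.24%, 3.80%, 9.11% and 13.03%. The share of Nr4a3 was 2.87% to 4.37% in the day 3 libraries and 12.5% to 13.6% in the day 30 libraries, with no overlap. Within single libraries the signal of Nr4a3 was 1.10 to 2.00 times that of Nr4a2 at day 0, 0.365 to 0.430 times at day 3, 1.54 to 3.44 times at day 7 and 1.73 to 2.24 times at day 30, so day 3 alone had less Nr4a3 than Nr4a2 in this uncorrected ratio.

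Set beside the other nuclear receptors, Nr4a1 was among the first 3 on every day. Of 45 other receptors listed, 27 were in the table, and with the 3 members 30 had a length. Nr4a1 averaged 14.2 ± 13.6, 75.2 ± 20.8, 9.73 ± 2.52 and 57.1 ± 1.44 signal per kilobase at days 0, 3, 7 and 30 (SD, n = 3 each), ranking 2, 1, 3 and 1 of 30. The day 0 mean rested on replicate 1: without it Nr4a1 averaged 6.36 signal per kilobase and ranked 3, below Rxra at 7.02. The glucocorticoid receptor Nr3c1, first at days 0 and 7, averaged 24.4, 13.3, 13.5 and 26.4. Nr4a2 averaged 1.02, 12.5, 0.663 and 6.97 signal per kilobase, ranking 18, 4, 20 and 4. Nr4a3 averaged 0.986, 3.46, 1.02 and 9.60 signal per kilobase, ranking 19, 8, 19 and 3. At day 0 Nr4a2 and Nr4a3 did not differ beyond their spread. Per kilobase of the longest transcript in place of all exons, the 3 members kept the same order on each day.

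**Figure D3:**
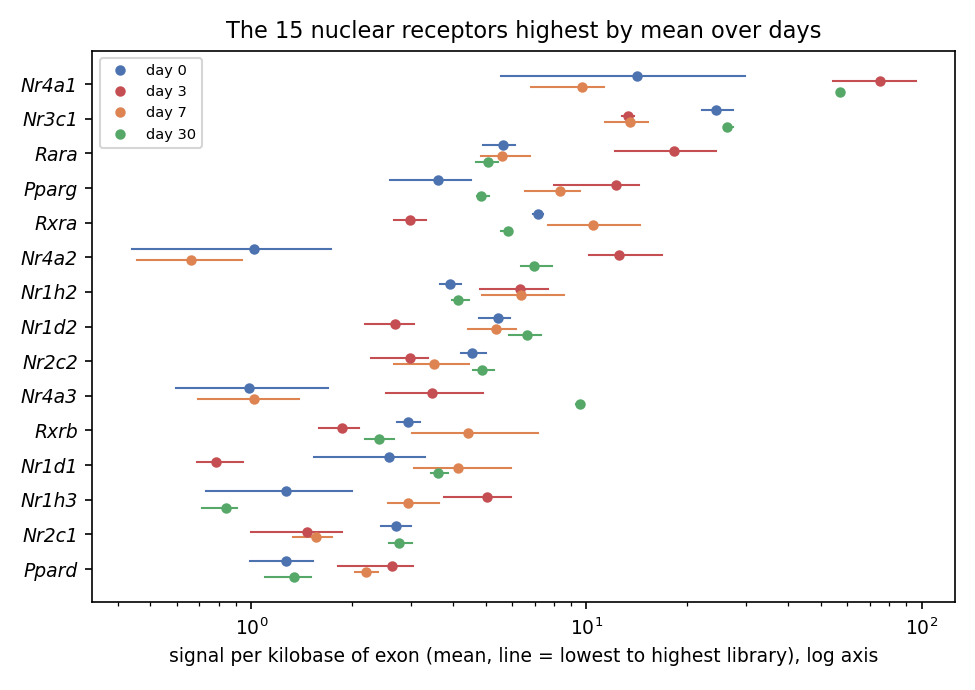
Signal per kilobase of exon (log axis) of the 15 nuclear receptors with the highest mean over days; points are the mean of each day and lines run from the lowest to the highest library. Nr4a1 is highest at days 3 and 30, and for Nr4a2 and Nr4a3 days 3 and 30 lie above days 0 and 7.

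Among the other receptors, 23 were tested by limma, and 6 were called higher and 12 lower at day 3 against day 0 (median log2 difference -0.73; all genes -0.019; 22.1% of all genes called in each direction). None was called in either direction by limma at day 30 against day 0, where 6.18% of all genes were. For example, the signal of Nr3c1 was 102 at day 3, against 187 at day 0, a log2 difference of -0.86 ± 0.14 (limma adjusted p = 0.000138), and at day 30 it was 203, against 187 at day 0 (0.12 ± 0.14, limma adjusted p = 0.66). At an unadjusted p up to 0.05, limma had 2 receptors higher and 1 lower at day 30. DESeq2 called 1 higher and edgeR none, and leaving out both day 0 replicate 1 and day 7 replicate 2 gave 3 higher and 2 lower. Without day 0 replicate 1 alone, 1 was higher. Without day 7 replicate 2 alone, 1 was higher and 1 lower.

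To find the genes most like each member, every gene with a mean signal of at least 10 outside the family (7449) was centred on its own mean log2(signal + 1) and its root mean square difference from the member over the 12 libraries was taken. This is a description, and libraries of 1 day share their condition. Nearest to Nr4a1 were Zfp36 (0.37), which encodes the mRNA decay protein tristetraprolin, the stress factor Atf3 (0.40), the cytokine Il1b (0.42), Csrnp1 (0.47) and the AP-1 subunit Fosl2 (0.48). Nr4a1's own spread on this measure was 1.45. Zfp36 had a signal of 1756, 342 and 402 at day 0, 1937, 3059 and 2760 at day 3, 683, 513 and 499 at day 7, and 2317, 2208 and 2225 at day 30, with the same high first library at day 0 as Nr4a1.

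Nearest to Nr4a2 were Ptgs2 (0.33), the inducible cyclooxygenase, Il1b (0.39), the chemokine Ccl7 (0.44), Ifrd1 (0.52) and Gm17024 (0.58), the last annotated within Ifrd1 on the same strand, so that their reads may not be separable. The spread of Nr4a2 itself was 1.69. Ptgs2 had a signal of 24.8, 11.1 and 20.3 at day 0, 199, 297 and 245 at day 3, 24.2, 15.6 and 23.1 at day 7, and 107, 107 and 108 at day 30, highest at day 3 like Nr4a2. Nearest to Nr4a3 were Nfkbiz (0.48), Il10 (0.52), the ubiquitin-editing NF-κB inhibitor Tnfaip3 (0.54), Nfkbid (0.55) and Tnfsf9 (0.56), and its own spread was 1.37. Nfkbiz, an atypical IκB protein, had a signal of 389, 96.9 and 102 at day 0, 307, 273 and 309 at day 3, 104, 62.1 and 106 at day 7, and 879, 885 and 937 at day 30, highest at day 30 like Nr4a3. The anti-inflammatory cytokine Il10 was at 5.41, 2.52 and 3.08 at day 0, 20.2, 15.7 and 20.7 at day 3, 5.75, 1.85 and 4.38 at day 7, and 29.4, 18.8 and 28.7 at day 30.

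Il1b was among the 5 nearest genes of both Nr4a1 and Nr4a2. Among the members, Nr4a1 and Nr4a2 differed by 0.58 on this measure, Nr4a1 and Nr4a3 by 0.77 and Nr4a2 and Nr4a3 by 0.95. Immediate early genes differed widely in their likeness to the family. Fos was rank 50 for Nr4a1, 84 for Nr4a2 and 12 for Nr4a3, whereas Egr1 was rank 6983, 7035 and 4847 and Klf2 rank 6498, 6394 and 3849, in the same order of members.

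**Figure D4:**
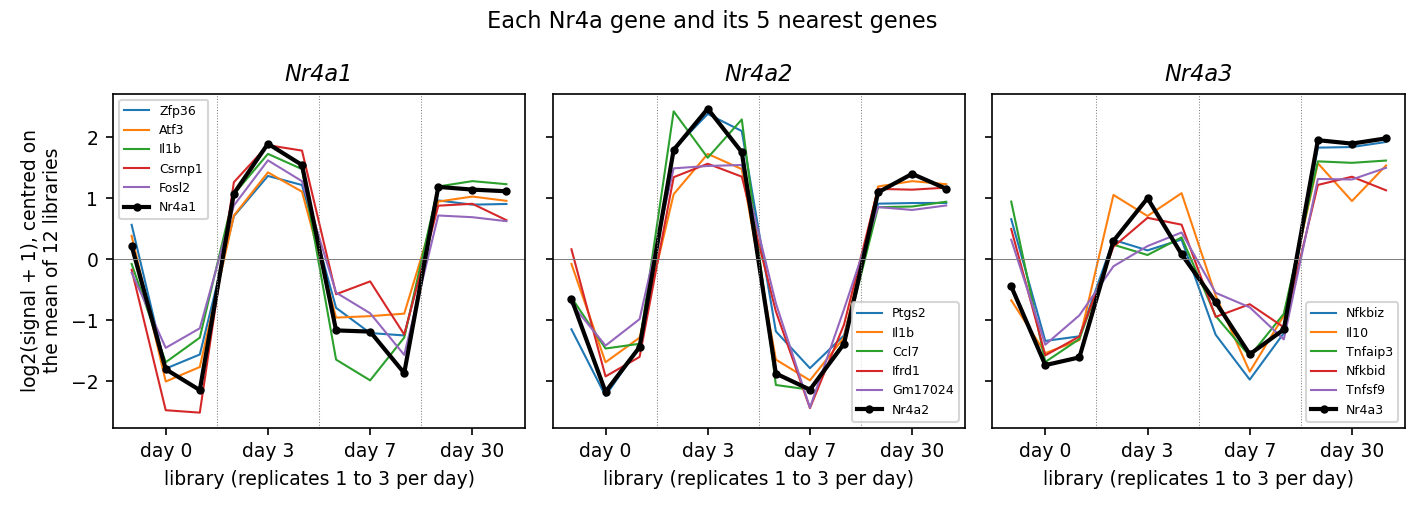
Log2(signal + 1) centred on each gene's mean over the 12 libraries, for Nr4a1, Nr4a2 and Nr4a3 (black) and the 5 genes nearest to each; replicates 1 to 3 of each day stand side by side without order. The first day 0 library lies above the other 2 in all 3 panels, Nr4a2 is highest at day 3 and Nr4a3 at day 30.

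Genes of the routes that switch Nr4a genes on were taken from lists. In the cyclic-AMP and CREB list (23 of 23 tested), limma called 11 higher and 7 lower at day 3 against day 0 (median log2 difference 0.43; all genes -0.019; 22.1% of genes called in each direction). The adenosine receptor Adora2b rose by 2.09 ± 0.27, the kinase Sik1, itself a CREB target, by 1.97 ± 0.27 and the CREB relative Atf1 by 1.27 ± 0.24, while the adenylate cyclase Adcy9 fell by 1.89 on the log2 scale. Against day 0, the day 30 cells had 4 higher and none lower by limma (3.45% of all genes higher and 2.73% lower; 1 lower at an unadjusted p up to 0.05, and 0 by edgeR and by DESeq2): the prostaglandin E2 receptor Ptger4 at 1.55 ± 0.19 (adjusted p = 0.00029, limma), the phosphodiesterase Pde4b at 1.02 ± 0.20, Sik1 at 0.93 ± 0.27 and the coactivator Ep300 at 0.56. That count was 2 without day 0 replicate 2, without day 0 replicate 3 or without any 1 day 30 library, and Sik1 was among the calls that were lost. At day 7 against day 0, 3 were higher and 3 lower (11.4% of all genes higher and 10.2% lower), with Crem, a CREB-family factor whose short forms are inducible repressors, at -1.15 ± 0.32. The count lower was 1 without day 0 replicate 1, day 0 replicate 3 or day 7 replicate 2, with Crem among the calls lost, and 5 without day 7 replicate 1, under quantile normalisation, under median centring or by DESeq2. Day 30 against day 7 gave 10 higher and 3 lower (19.7% of all genes higher and 19.9% lower), with Pde4b at 1.60 ± 0.20 and Crem at 1.46 ± 0.32.

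In the calcium, calcineurin and MEF2 list (18 of 18 tested), limma called 3 higher and 5 lower at day 3 against day 0 (median log2 difference 0.10), shares not far from the 22.1% of all genes in each direction. The calcium-dependent kinase Camk2d rose by 2.34 ± 0.15, and Mef2c, a factor that binds calcium-responsive promoters, fell by 1.96 ± 0.22 on the log2 scale. The signal of Mef2c was 74.0 at day 3, against 291 at day 0, and 320 at day 30, against 291 at day 0 (log2 difference 0.14 ± 0.22, limma adjusted p = 0.76). The part of Mef2c in the Nr4a levels was not tested. The class IIa deacetylase Hdac9, which holds MEF2 sites silent, fell by 1.32 ± 0.25 at day 3. Against day 0, the day 30 cells had 2 higher, Camk2d at 0.64 ± 0.15 and Mef2a at 0.52 ± 0.14, and none lower by limma (3.45% of all genes higher and 2.73% lower; 0 lower also at an unadjusted p up to 0.05 and by edgeR and DESeq2). That count was 0 without day 0 replicate 2, day 0 replicate 3 or any 1 day 30 library, 1 without day 0 replicate 1 or day 3 replicate 2, and 4 without both day 0 replicate 1 and day 7 replicate 2. Day 30 against day 7 gave 6 higher and 2 lower (19.7% of all genes higher and 19.9% lower), with Mef2c at 1.18 ± 0.22. The count lower at day 3 was 3 without day 0 replicate 1 or day 3 replicate 3, the count higher at day 3 was 5 without day 7 replicate 2, and the count lower at day 30 against day 7 was 4 without day 7 replicate 3 and 1 without day 30 replicate 3.

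Of the partners and coregulators of NR4A proteins (15 of 16 listed genes tested), limma called 5 higher and 4 lower at day 3 against day 0 (median log2 difference 0.32; all genes -0.019; 22.1% of all genes called in each direction). The retinoid X receptor Rxra, the dimer partner of NR4A1 and NR4A2, was at a signal of 16.2 at day 3, against 39.1 at day 0, a log2 difference of -1.22 ± 0.19 (adjusted p = 0.00011, limma), opposite to its Nr4a partners. At day 7 it was 57.1, against 16.2 at day 3 (1.71 ± 0.19), and at day 30 it was 31.9, against 57.1 at day 7 (-0.77 ± 0.19), again opposite to the Nr4a genes in each step. Rcor1, a corepressor scaffold through which NR4A2 was reported to silence NF-κB targets in mouse microglia and astrocytes, rose by 0.69 ± 0.18 at day 3 and the coactivator Ncoa1 by 0.99 ± 0.16. None of the 15 was called by limma at day 30 against day 0, where 6.18% of all genes were, with 3 higher and 0 lower at an unadjusted p up to 0.05, and DESeq2 called 1 higher and edgeR none. Without day 7 replicate 1, 1 was higher, and without day 7 replicate 2, 1 was higher and 1 lower. The count higher at day 3 was 3 without day 0 replicate 2 or day 3 replicate 3 and 2 under quantile normalisation, and the count lower was 2 under median centring, without any 1 library of day 0 or day 30 and without day 3 replicate 2 or replicate 3.

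Among the other immediate early genes (25 of 26 tested), limma called 12 higher and 4 lower at day 3 against day 0 (median log2 difference 0.77; all genes -0.019; 22.1% of all genes called in each direction). The higher ones were led by Csrnp1 at 3.36 ± 0.45, Atf3 at 2.21 ± 0.42, Fosl2 at 2.19 ± 0.29 and Zfp36 at 2.03 ± 0.43. Egr1, a zinc-finger factor induced by many of the same signals, moved against the Nr4a genes. Its signal was 57.5, 70.7 and 68.4 at day 3, against 710, 203 and 269 at day 0, below without overlap (log2 difference -2.36 ± 0.31, adjusted p = 2.0e-05, limma). Klf2 fell as well, by 2.05 ± 0.25 on the log2 scale. Fos passed at 0.89 ± 0.32 (adjusted p = 0.032, limma), but its groups overlapped and the call was lost with edgeR, under quantile normalisation, and without day 0 replicate 2, day 0 replicate 3, day 3 replicate 2 or day 3 replicate 3. Jun was at -0.60 ± 0.27 and Klf4 at -0.16 ± 0.34, neither called. The count higher was 7 without day 0 replicate 3, and the count lower 2 without day 0 replicate 1 or day 3 replicate 1.

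At day 7 against day 0, where the Nr4a ranges overlapped, 1 immediate early gene was higher and 7 were lower by limma (10.2% of all genes were called lower). Klf2 was at -2.07 ± 0.25, Klf4 at -1.52 ± 0.34, Jun at -1.16 ± 0.27 and Egr1 at -1.15 ± 0.31. Leaving out day 0 replicate 1 gave 6 higher, and Egr1 was no longer called without day 7 replicate 2. At day 7 against day 3, 14 were lower (23.5% of all genes) and 1, Egr1, was higher (23.3% of all genes), at 1.204 ± 0.31.

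In the day 30 cells 11 of 25 were higher than at day 0 and none lower by limma, nor at an unadjusted p up to 0.05 or by edgeR or DESeq2 (median log2 difference 1.003; all genes -0.0050; 3.45% of all genes called higher and 2.73% lower). Csrnp1 was at 2.53 ± 0.45, Nfkbiz at 2.51 ± 0.38, Atf3 at 2.11 ± 0.42, Fosb at 2.00 and Fos at 1.46 ± 0.32, beside 3.21, 2.64 and 2.39 for Nr4a3, Nr4a2 and Nr4a1. The count rested on which libraries were used. It was 21 without day 0 replicate 1, 4 without day 0 replicate 2, 5 without day 0 replicate 3 and 5 without any 1 day 30 library, 6 by edgeR and 0 with the 3 day 30 libraries averaged as 1 sample. Of the genes named here, Fos and Fosb lost their calls without day 0 replicate 2 or 3 or any 1 day 30 library, Fosb also by edgeR and DESeq2, and Atf3 without day 0 replicate 2. Egr1 was at 1.04 ± 0.31 (adjusted p = 0.062, limma). Against day 7, the day 30 cells had 21 of 25 higher and none lower by limma, nor at an unadjusted p up to 0.05 or by edgeR or DESeq2 (median log2 difference 1.68; all genes 0.012; 19.7% of all genes called higher and 19.9% lower), and the count was 11 with day 30 averaged. There Egr1 and Klf2 moved with the Nr4a genes, at 2.19 ± 0.31 and 2.58 ± 0.25, as did Klf4 at 2.52 ± 0.34 and Jun at 1.37 ± 0.27.

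**Figure D5:**
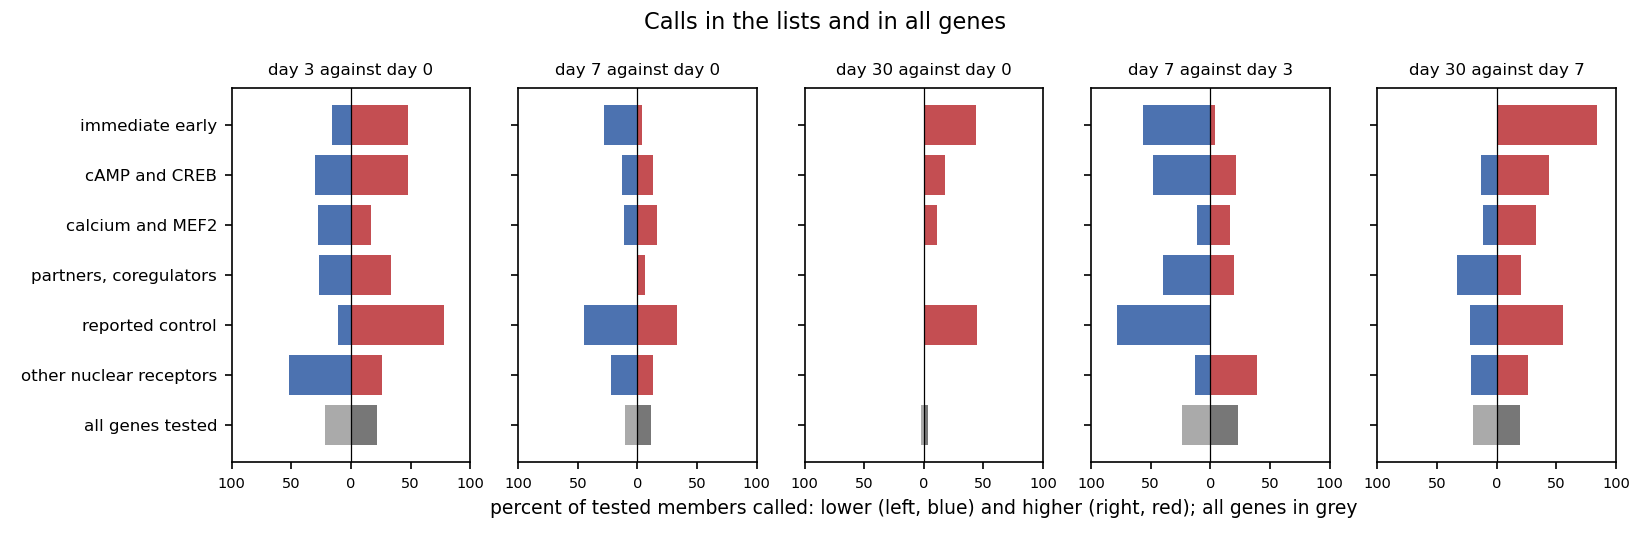
Percent of tested members of each list called lower (left) and higher (right) by limma in each comparison, with all 12879 genes tested in grey. Immediate early genes reach 21 of 25 called higher at day 30 against day 7, and 11 of 25 at day 30 against day 0, where few genes were called overall.

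Genes that other studies reported to be under NR4A control in macrophages (9 of 10 listed genes tested) did not move as 1 block. At day 3 against day 0, limma called 7 higher and 1 lower (median log2 difference 2.44; 22.1% of all genes called in each direction; 2 lower without day 0 replicate 2): the matrix cytokine Spp1 rose by 6.19 ± 0.34, the chemokine Ccl2 by 3.41 ± 0.18, the NF-κB kinase Ikbke by 2.81 ± 0.30, the monocyte chemokine receptor Ccr2 by 2.52 and Il1b by 2.44 ± 0.31, and the fatty acid receptor Cd36 fell by 2.01 ± 0.31. Ccr2 is also on the Ly6C-high monocyte list, and the day 3 cells were sorted as Ly6chigh. Day 30 against day 0 gave 4 higher and none lower by limma (0 lower also at an unadjusted p up to 0.05 and by edgeR and DESeq2; median log2 difference 0.77; 3.45% of all genes called higher): Il1b at 2.25 ± 0.31, Spp1 at 1.67 ± 0.34, Ccl2 at 1.34 ± 0.18 and Tnf at 0.93 ± 0.25. That count was 2 without day 30 replicate 2, where Spp1 was lost, and Tnf was lost with edgeR and without day 0 replicate 2, day 0 replicate 3, day 3 replicate 3 or any 1 day 30 library.

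The list was split at day 7 against day 0, where limma called 3 higher and 4 lower (11.4% of all genes higher and 10.2% lower), with Spp1 at 4.76 ± 0.34, Ikbke at 1.85 ± 0.30, Cd36 at -1.44 ± 0.31 and Ccl2 at -0.99 ± 0.18. Ccl2 was then at a signal of 41.6, 55.4 and 45.9, against 126, 76.3 and 88.4 at day 0, below without overlap. The count lower was 2 under the replicate block and without day 0 replicate 1, day 0 replicate 3, day 3 replicate 2, day 3 replicate 3, day 7 replicate 2, any 1 day 30 library or both day 0 replicate 1 and day 7 replicate 2, and with day 30 averaged as 1 sample. At day 7 against day 3, 7 of 9 were lower by limma and none higher (23.5% of all genes lower and 23.3% higher; 0 higher also at an unadjusted p up to 0.05 and by edgeR and DESeq2; 1 without day 3 replicate 1 and 1 under quantile normalisation), with Ccl2 at -4.40 ± 0.18 and Il1b at -3.06 ± 0.31. At day 30 against day 7, 5 were higher and 2 lower (19.7% of all genes higher and 19.9% lower). Il1b was at 2.87 ± 0.31, Ccl2 at 2.33 ± 0.18 and Tnf at 1.65 ± 0.25, whereas Spp1 was at -3.10 ± 0.34 and Ikbke at -1.39 ± 0.30. The count higher was 3 without any 1 day 30 library. With day 30 averaged as 1 sample, no gene of the cyclic-AMP, calcium or NR4A-control lists was called higher against day 0, and against day 7 the counts higher were 2, 0 and 3 in that order of lists. Spp1 was at a mean signal of 435 at day 7, against 16.5 at day 0, a comparison in which the Nr4a ranges overlapped. Cebpb, whose product drives Nr4a1 and survival of Ly6C-low monocytes in mice, had a signal of 73.4, 89.3 and 77.4 at day 3, against 22.8, 12.7 and 16.1 at day 0 (log2 difference 2.19 ± 0.19, adjusted p = 2.5e-07, limma), and of 23.01, 23.6 and 24.9 at day 30, against the same day 0 libraries (0.48 ± 0.19, adjusted p = 0.15, limma). Its day 30 libraries lay just above those of day 0 and far below those of day 3.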

How the data were processed

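RNA-seq libraries of 12 samples in 4 groups of 3 were analysed from 1 deposited table of 14460 genes. The submitters' processing notes name cutadapt 1.3, RSEM 1.2.20, edgeR 3.14.0 and GRCm38; whether counting used strand is not given in the sources used here. The first 12 value columns hold the signal deposited by the authors, a normalised read count. The other 12 hold deposited log2 values, equal within 1e-06 to the log2 of the signal with values below 1 set to 1 (173520 of 173520 cells). Dividing a library's signal by its smallest step gave back whole reads (100% of values within 0.02 reads).

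The 12879 genes averaging a signal of 1 or more were fitted as log2(signal + 1) with limma 3.58.1 in R 4.3.3 (variance trend, 4 group means, 8 residual degrees of freedom, two-sided, Benjamini-Hochberg threshold 0.05). A run on simulated data gave all groups the same spread, so it does not cover the unlike spread of these groups. edgeR 4.0.16 and DESeq2 1.42.0 were run on the recovered reads as alternatives. Lengths, positions and gene overlap came from GENCODE M21 (98.4% of identifiers matched), and 15 symbols turned into dates were restored by identifier. Promoter windows came from RefSeq GRCm38.p6. Floors of 3 reads cover counting error only.

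The members, gene lists and marker lists were chosen with earlier results of these data known. The members get levels, SD and log2 differences with SE but no p. Named genes were the members, 11 fixed regulators (Fos, Jun, Egr1, Atf3, Klf2, Klf4, Cebpb, Rxra, Rcor1, Crem and Mef2c), the 5 genes nearest to each member, and up to 3 called genes per list and comparison by size of change. Nr3c1, Atf1, Adcy9, Ep300, Fosb, Ccr2, Tnf and F13a1, and Cd36 at day 3, were named after their values were seen. 1 gene of the cyclic-AMP list is counted but not reported here. Further alternatives changed the pseudocount (0.1 or 5), the filter on low values (none, or a mean of 5), the scaling (quantiles or medians), the block (replicate number), the libraries (leaving out each, or both day 0 replicate 1 and day 7 replicate 2, or averaging day 30) and the length (longest transcript). P-values measure the spread between these libraries.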

Additional observations from a re-analysis of the deposited data

How the results depend on the processing

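The direction of every Nr4a difference at days 3 and 30 held under each alternative run, and only the day 7 against day 0 differences changed sign. With a pseudocount of 5, Nr4a2 was at 2.61 for day 3 and 1.90 for day 30 against uninjured cells, at -2.83 for day 7 against day 3 and at 2.12 for day 30 against day 7. Nr4a3 was then at 2.57 for day 30 against uninjured cells and at 2.51 for day 30 against day 7. Without both day 0 replicate 1 and day 7 replicate 2, Nr4a1 was at 3.48 at day 3 and 3.12 at day 30 against day 0, and the day 7 against day 0 differences were 0.46 for Nr4a1, 0.18 for Nr4a2 and 0.74 for Nr4a3. Leaving out 1 library moved the Nr4a1 differences over 2.30 to 3.48 (day 3), -0.61 to 0.57 (day 7) and 1.94 to 3.12 (day 30) against day 0; the reversals were 0.57 without day 0 replicate 1 and 0.067 without day 7 replicate 3. For day 7 against day 0, Nr4a2 ran from -0.75 to 0.0070 (the reversal, without day 0 replicate 1) and Nr4a3 from -0.11 to 0.53, with -0.11, -0.048 and -0.092 without day 0 replicate 2, day 0 replicate 3 and day 7 replicate 1. In all, 326 of the member values stayed within 1 residual SD of those reported, 11 moved further and 8 reversed.

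Genes called with 1 library left out numbered 4646 to 6750, beside 5698 with all libraries (day 3 against day 0), 1867 to 3335 beside 2782 (day 7 against day 0), 235 to 1990 beside 796 (day 30 against day 0), 5020 to 6224 beside 6032 (day 7 against day 3) and 3474 to 5502 beside 5103 (day 30 against day 7). For day 30 against day 0 the count was 268 without day 0 replicate 2, 402 without day 0 replicate 3, 1990 without day 7 replicate 2, and 276, 235 and 272 without day 30 replicate 1, 2 and 3. DESeq2 called 1328 there, the fit without day 0 replicate 1 and day 7 replicate 2 called 2513, and day 30 averaged as 1 sample called 14; averaging also gave 1740 for day 7 against day 0 and 815 for day 30 against day 7, with fewer samples in the fit. Other settings kept the counts within 1.5 times, and 140 of the list counts moved further. Same-numbered libraries did not deviate together (median r 0.00490 over 18 pairs, -0.0831 to 0.210, and -0.00690 over 36 pairs of different numbers), so no pairing by number was seen. With 3 libraries per group, this cannot exclude a weak pairing. A replicate block called 5725, 2850, 835, 6040 and 5144 genes in the order above. Per kilobase of the longest transcript, 5 of the 12 member levels moved by more than 1 SD. Nr4a2 and Nr4a3 rest on 16 to 77 reads per library at days 0 and 7, which limits their day 7 comparison.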
